A study of Solenopsis japonica with 2 samples.

Results

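Tuning odorant receptors of the ant Solenopsis japonica were represented by 40 contigs among the 4487 of the deposited comparison of 2 RNA-seq libraries, and 39 of the 40 were lower in the library of cold-treated workers. A contig is an assembled transcript sequence. A contig was taken as a tuning odorant receptor when the description of its best protein match (NR database) or its best nucleotide match (NT database) held the words odorant receptor, and contigs described as the coreceptor were left out. Workers of this fire ant, wild type adults, spent 24 h at a cold 9 °C, the T9 group, or at the control temperature of 25 °C, the T25 group, and RNA of whole bodies was sequenced in 1 library per temperature, each from a pool of workers. The study's methods speak of several independent preparations per temperature, and whether the pooled RNA of a library holds them is not given in the sources used here. All ants came from laboratory colonies kept at 25 °C until the treatment. With 1 library on each side these counts hold no replicate check, so no difference in them can be set against the spread between pools of ants. No test of the temperature was made.

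Insects smell with seven-transmembrane receptors in the dendrites of antennal sensory neurons. Each neuron usually makes a tuning receptor, which decides which odours are detected, together with the shared coreceptor Orco, and both form a ligand-gated ion channel. Ants carry an unusually large family of tuning receptors, and their workers use them to read cuticular hydrocarbons, trail and alarm pheromones and food odours. Since each receptor is made by few neurons, its transcripts are rare in RNA of a whole body. The receptor names used here (13a, 82a, Or1 and so on) are those of the closest named sequence, mostly numbered after the fruit fly Drosophila melanogaster, and do not say which odour the ant receptor binds.

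Summed over the 40 contigs, 351 counts were found in T9 and 1525 in T25. Scaling used the library sizes carried by the authors' log2 values, 53237356 counts for T9 and 49264352 for T25. These sizes differ from the numbers of reads. Scaled in this way, the sums were 6.59 against 31 CPM (counts per 1000000 counts of that size). This was 4.70-fold lower in T9, with an exact 95% interval (Clopper-Pearson) of 4.18 to 5.29. Here and below, the interval in parentheses after a fold covers counting error only. Of the 40 contigs, 39 (97.5%) were lower in T9, while 45.3% of all 4487 contigs were. At least 4-fold lower, which is a log2 ratio of -2 or less after 1 was added to each scaled count, were 29 members (72.5%) against 28.0% of all contigs. Higher in T9 was 1 member, against 54.7% of all contigs, and it was at least 4-fold higher, as were 33.6% of all contigs. The median log2 ratio of T9 over T25 was -2.67 over the members, 1.45 over all contigs and -2.18 over the contigs lower in T9. In whole bodies, fewer receptor neurons and less receptor RNA per neuron cannot be told apart.

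The deposited table limits what these counts say. It holds contigs that passed a cut of the authors on fold change and unadjusted p, with at least 1 count in each library. That is a wider choice than the paper's own list of differentially expressed genes, which holds only some of the 40 contigs. Receptors with similar levels at both temperatures, and receptors with a count of 0 in either library, are left out of the table and were not analysed here. The 39 of 40 is therefore a share of the receptor contigs that passed this cut, not of the receptors of the ant. For the same reason each of the 39 intervals lies below a ratio of 1 throughout. The cut also keeps the fold of every contig, and so the medians, away from no change, and the summed folds rest on such contigs only. The median over all contigs lies close to the gap around 0 and describes no typical contig.

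**Figure D1:**
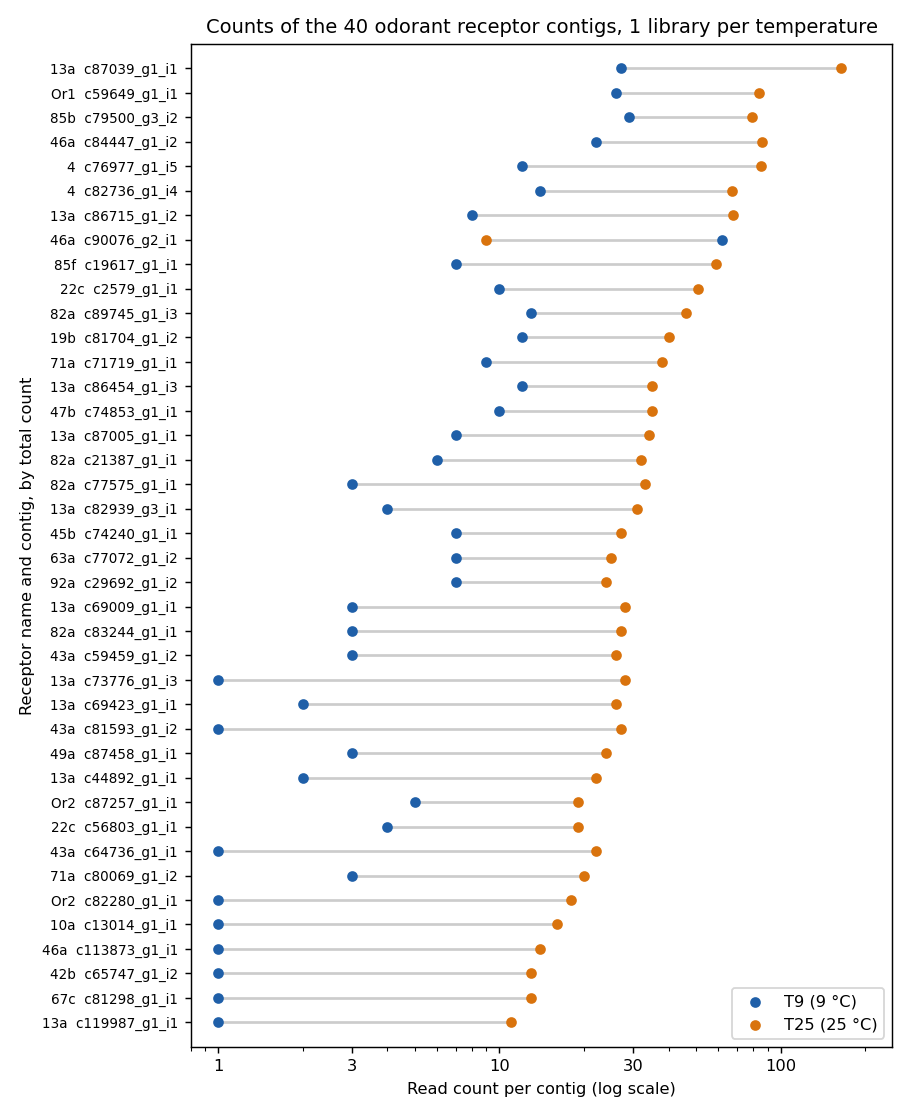
Read counts (log scale) of each of the 40 odorant receptor contigs in the T9 library (blue) and the T25 library (orange), 1 point per library, ordered by total count and labelled with receptor name and contig. The blue point lies left of the orange one in 39 contigs, and in c90076_g2_i1, with 62 counts in T9 and 9 in T25, it lies right.

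The largest group by name was receptor 13a-like, with 10 contigs, all lower in T9, 67 counts in T9 and 447 in T25 in all and 7.21-fold lower (5.57 to 9.47). In the fly, Or13a is a receptor for octenol, a mushroom odour. The contig with the largest total of all members belongs here. It is c87039_g1_i1, with 27 counts in T9 and 164 in T25, 6.56-fold (4.35 to 10.3) lower in T9. It holds 10.8% of the members' counts in T25. Its protein match is named 13a-like and its nucleotide match 43a-like, so its place in this group depends on the database. The contig c86715_g1_i2 had 8 and 68 counts and was 9.19-fold (4.41 to 22.1) lower. These are the 13a-like contigs whose whole interval lies beyond 4-fold with more than 1 count in T9.

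The other 13a-like contigs had 1 to 12 counts in T9 and 11 to 35 in T25. The contig c73776_g1_i3, with 1 and 28 counts, had the lowest log2 ratio of all members, -3.94, and was 30.3-fold lower, but its interval runs from 5.0 to 1237. At the other end c86454_g1_i3, with 12 and 35 counts, was 3.15-fold (1.60 to 6.67) lower, the 13a-like contig that did not reach 4-fold. Between them lie c69423_g1_i1 with 2 and 26 counts, c69009_g1_i1 with 3 and 28, c44892_g1_i1 with 2 and 22, c82939_g3_i1 with 4 and 31, c87005_g1_i1 with 7 and 34, and c119987_g1_i1 with 1 and 11. Their intervals all overlap, and the order of these contigs within the group was not tested.

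Receptor 82a-like came next with 4 contigs, all lower, 25 counts in T9 and 138 in T25 in all and 5.97-fold lower (3.88 to 9.54). In the fly Or82a detects geranyl acetate, a floral ester. The contig c77575_g1_i1 had 3 and 33 counts and was 11.9-fold (3.73 to 60.6) lower, and c83244_g1_i1 had 3 and 27 and was 9.73-fold (2.99 to 50.1) lower. The remaining 82a-like contigs were c21387_g1_i1 with 6 and 32 counts and c89745_g1_i3 with 13 and 46, the latter 3.82-fold (2.03 to 7.71) lower. All 4 intervals overlap.

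The 3 receptor 43a-like contigs had 5 counts in T9 and 75 in T25 in all, 16.2-fold lower (6.65 to 51.4). This sum turns on the naming. With the nucleotide name put first, c87039_g1_i1 joins them, and the 4 contigs have 32 and 239 counts and are 8.07-fold lower (5.57 to 12.1), while the 13a-like group falls to 9 contigs and 7.65-fold lower (5.48 to 10.9). They are c81593_g1_i2 with 1 and 27 counts, c64736_g1_i1 with 1 and 22, and c59459_g1_i2 with 3 and 26. The first of them was 29.2-fold lower, the next to largest fold of the members, with an interval from 4.81 to 1195. The intervals of both contigs with 1 count in T9 are this wide, so they bound the change on the near side only.

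Receptor 4-like carries a number shared by receptors of several insects, so no role is given for it. Both of its contigs were lower in T9. For c76977_g1_i5 there were 12 counts in T9 and 85 in T25, 7.65-fold (4.16 to 15.4) lower, and for c82736_g1_i4 14 and 67, 5.17-fold (2.88 to 9.96) lower. These folds lie within each other's interval.

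Pairs of contigs also stood behind the names 22c, 71a and Or2, and each of the 6 was lower in T9. Receptor 22c-like had c2579_g1_i1 with 10 and 51 counts, 5.51-fold (2.77 to 12.2) lower, and c56803_g1_i1 with 4 and 19. In the fly, Or22c is a receptor of the larval nose. The 71a contigs were c71719_g1_i1 with 9 and 38 counts, 4.56-fold (2.17 to 10.7) lower, and c80069_g1_i2 with 3 and 20. In the fly, Or71a sits on the maxillary palp and detects ethylphenols from yeast and plant matter. Or2-like, named after a malaria mosquito receptor for indole, had c87257_g1_i1 with 5 and 19 counts and c82280_g1_i1 with 1 and 18.

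Receptor 46a was the name whose contigs went both ways. In the fly, Or46a is a receptor of the maxillary palp with a pair of isoforms, A and B. The contig c84447_g1_i2, isoform B-like in both databases but matched to isoform A in UniProt, had 22 counts in T9 and 86 in T25 and was 4.22-fold (2.62 to 7.09) lower, and the isoform A-like contig c113873_g1_i1 had 1 and 14 counts and was 15.1-fold (2.30 to 640) lower. The other isoform B-like contig, c90076_g2_i1, went the other way, from 9 counts in T25 to 62 in T9, a level 6.37-fold (3.15 to 14.6) higher at the cold temperature. It was the member that was higher in T9. Summed over the 46a contigs, 85 counts in T9 stood against 109 in T25, 1.39-fold lower (1.03 to 1.86), a sum that hides these opposite directions.

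Per length of contig, the level of c90076_g2_i1 was 4.33 FPKM (fragments per kilobase and 1000000 mapped reads, as the authors deposited it) in T9 and 0.62 in T25. The other 39 members had FPKM levels of 0.03 to 0.61 in T9, with a median of 0.19, and of 0.58 to 4.51 in T25, with a median of 1.17. So among the members its T25 level lay at the low end and its T9 level at the top. The other 39 passed the authors' cut as lower in T9, and receptors with similar levels were left out. This rank thus follows in part from the cut and is not one within the whole family. The same holds for its share of the members' counts, 17.7% (13.8% to 22.1%, exact binomial interval) in T9 and 0.590% (0.270% to 1.12%) in T25. Without c90076_g2_i1 the members summed to 289 counts in T9 and 1516 in T25, 5.67-fold lower (5.0 to 6.45).

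**Figure D2:**
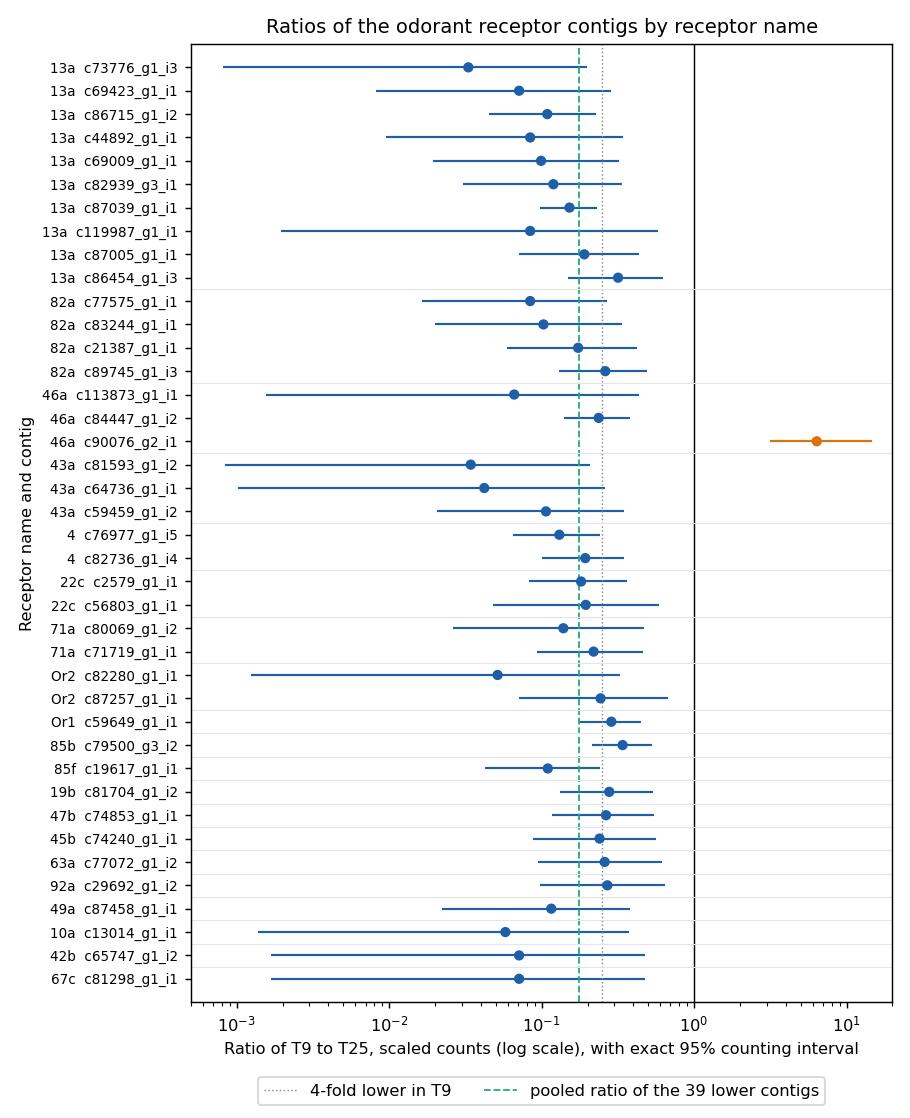
Ratio of T9 to T25 of each contig (log scale), from counts scaled by library size, with its exact 95% interval for counting error as a line, grouped by receptor name from the largest group down. Blue contigs are lower and the orange one is higher in T9. The dashed line, the pooled ratio of the 39 lower contigs (5.67-fold lower), crosses 37 of their 39 intervals.

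The remaining 12 names were each carried by 1 contig, and all were lower in T9. Those with the most counts were Or1-like (c59649_g1_i1), with 26 counts in T9 and 84 in T25, 3.49-fold (2.23 to 5.65) lower, and 85b-like (c79500_g3_i2), with 29 and 79, 2.94-fold (1.90 to 4.67) lower. The 85b-like contig had the log2 ratio closest to 0 of the 39, -1.52. Receptor 85f-like (c19617_g1_i1) had 7 and 59 counts and was 9.11-fold (4.16 to 23.6) lower. In the fly, Or85f and Or49a respond to the scent of parasitoid wasps, and the 49a-like contig (c87458_g1_i1) here had 3 and 24 counts and was 8.65-fold (2.63 to 44.9) lower.

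Of the others, 19b (c81704_g1_i2) had 12 counts in T9 and 40 in T25, 47b-like (c74853_g1_i1) 10 and 35, 45b-like (c74240_g1_i1) 7 and 27, 63a-like (c77072_g1_i2) 7 and 25, and 92a (c29692_g1_i2) 7 and 24. In the fly, Or47b senses fatty acid odours of other flies and acts in courtship, and Or92a senses diacetyl, a fermentation odour. Their folds lay from 3.60 for 19b to 4.17 for 45b-like, in a narrower range than those of the rarest receptors. The last, each with 1 count in T9, were 10a-like (c13014_g1_i1) with 16 in T25, and 42b-like (c65747_g1_i2) and 67c-like (c81298_g1_i1) with 13 each. In the fly, Or10a detects methyl salicylate and Or42b the fruit esters that draw flies to vinegar.

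The folds of the 39 lower contigs ran from 2.94 to 30.3, and at these counts most of their order is not resolved. The interval of 37 of them held the pooled 5.67-fold, but most intervals are too wide to miss it, so this does not show that the receptors fell alike. Of the 4 members with more than 100 counts, whose intervals are the narrowest, Or1-like (c59649_g1_i1) and 85b-like (c79500_g3_i2) had intervals that ended short of the pooled fold, at 5.65 and 4.67, while c87039_g1_i1 and c84447_g1_i2 held it. The largest folds belonged to contigs with 1 count in T9. Of the 40 members 9 had 1 count in T9, 17 had 3 or fewer and 28 fewer than 10, and the whole interval lay beyond 4-fold for 6 members, 15.0%, against 4.03% of all contigs.

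The share of members at least 4-fold lower depends on the count, as it does in the whole table, where contigs with few counts are present only with a large fold. With a total of up to 30 counts, 16 of the 17 members were at least 4-fold lower, 94.1%, close to the 89.7% of all contigs of that size that were lower in T9. With 31 to 100 counts, 11 of the 18 lower members were at least 4-fold lower (61.1%, against 50.2%), and with 101 or more counts 2 of 4, against 30.5%. Lower in T9 were 17 of 17, 18 of 19 and 4 of 4 members in these ranges of total count, and 52.7%, 46.7% and 35.9% of all contigs.

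**Figure D3:**
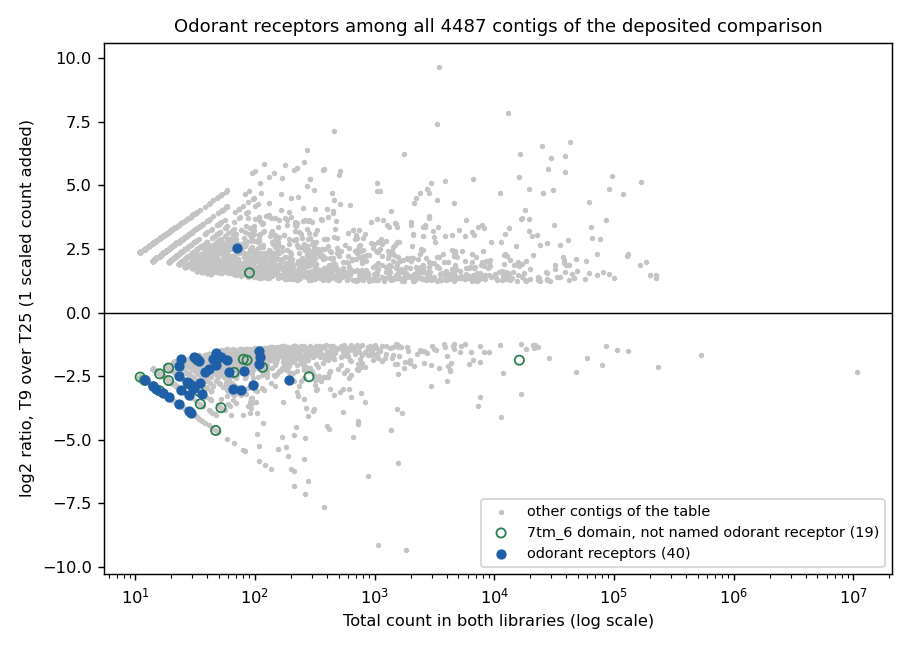
Log2 ratio of T9 over T25 (1 scaled count added) against the total count in both libraries (log scale) for the 4487 contigs (grey), the 40 odorant receptors (blue) and 19 contigs with the receptor domain 7tm_6 but without the name (green rings). The band without points around 0 holds contigs left out of the table by the authors, and 39 of 40 blue points lie below it.

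The names rest on matches that the deposited protein domains allow to be checked. All 40 members carry the Pfam domain 7tm_6, the domain of insect odorant receptors, which the choice by name did not use. In 29 contigs the receptor was named in both databases, in 8 in the nucleotide match alone and in 3 in the protein match alone. Of the 29, 3 had different names in the databases. These are c87039_g1_i1 (13a and 43a), c56803_g1_i1 (22c and 92a) and c13014_g1_i1 (10a and 22c), with the protein name first. The nucleotide match was a transcript of the fire ant Solenopsis invicta for 25 contigs and of the ant Monomorium pharaonis for 8. The 40 contigs matched 39 genes, since c29692_g1_i2 and c56803_g1_i1 share a nucleotide match and may be parts of 1 transcript.

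By level, the members were rare at both temperatures. At 25 °C 18 of the 40 were below 1 FPKM, and at 9 °C 39 were. These 39 are the contigs that passed the authors' cut as lower in T9, so their number at 9 °C partly restates the cut. The share of all contigs below 1 FPKM was not computed, and receptors that the cut left out may differ in level. The highest T25 level, 4.51 FPKM, was that of the Or2-like contig c82280_g1_i1, which rests on 18 counts, and the next, 3.99, that of the 13a-like contig c119987_g1_i1 on 11 counts. For these contigs 1 FPKM corresponds to 3.99 and 2.76 counts, against a median of 28.4 over the members, so both are short, and FPKM levels of such fragments carry a large counting error. The 13a-like contig c87039_g1_i1, with the largest counts, was at 2.34 FPKM in T25 and 0.39 in T9.

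Other genes of smell were looked up by their names. The coreceptor Orco had 3 contigs, all lower in T9, with 688 counts in T9 and 3949 in T25 in all, 6.20-fold lower (5.72 to 6.74). These folds range from 4.59 for c68849_g2_i1 through 15.4 for c89345_g8_i1 to 94.2 for c89345_g3_i1. Sensory neuron membrane protein 1-like, a CD36-type protein beside receptors for lipid pheromones, had 2 contigs, both lower. The contig c90619_g1_i1 had 111 counts in T9 and 1591 in T25 and was 15.5-fold lower, and c90181_g1_i1 had 7 and 206 and was 31.8-fold lower. The paper also measured c89345_g3_i1 and c90181_g1_i1 by qPCR in pools of ants and reported changes in the same direction. No tuning receptor was among its qPCR genes.

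Odorant-binding proteins, which carry odours through the fluid around the receptors, went both ways, with 4 contigs lower and 3 higher in T9. The 69a-like contig c112576_g1_i1 had 1751 counts in T9 and 14950 in T25 and was 9.23-fold lower, and binding protein 72 (c112589_g1_i1) had 572 and 3454 and was 6.53-fold lower. Matched to the pheromone-binding protein Gp-9-like, which in fire ants belongs to the gene family tied to the number of queens a colony accepts, c86453_g1_i1 had 1747 counts in T25 and 7221 in T9, a level 3.82-fold (3.63 to 4.03) higher at the cold temperature. Chemosensory proteins, listed as ejaculatory bulb-specific protein 3, had 2 contigs lower and 1 higher. The contig c101951_g1_i1 had 680 and 1785 counts, c106955_g1_i1 111 and 1431, and c46607_g1_i2 127 and 12.

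Receptors outside the family were also split. Of 3 gustatory receptor contigs 2 were lower in T9, namely c79644_g1_i1 (28a) with 9 counts in T9 and 33 in T25 and c84616_g3_i1 (28a) with 1 and 10, while c63760_g1_i1 (23a) had 21 and 4. The list of ionotropic receptors found 6 contigs, 4 lower and 2 higher, and all 6 are described as glutamate receptors of the kainate, delta or NMDA type. These descriptions do not say whether a contig belongs to synapses or to antennal neurons. Its contigs with the most counts were c87528_g1_i3 (kainate 2-like), with 998 counts in T9 and 3058 in T25, c90592_g1_i4 (delta-1-like), with 410 and 74, and c78441_g1_i1 (NMDA 2B), with 17 and 59. All contigs of the ionotropic list are counted again in the neuronal list below. Differences between these lists and the tuning receptors were not tested.

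Contigs listed as markers of other tissues, by words in their descriptions, moved as well. Of the contigs named after eye genes 3 of 3 were lower in T9, among them rhodopsin (c81871_g1_i3) with 10 and 60 counts, and of those named after muscle genes 20 of 23 and after neuronal genes 26 of 36. Of the gut list 25 of 32 and of the fat body list 27 of 29 were higher. Of all contigs 45.3% were lower and 54.7% higher. The words caught some contigs that may not mark the tissue. In the eye list this is c72912_g1_i1, matched to retinal guanylyl cyclase 2, with 13 counts in T9 and 45 in T25. The gut list holds a chymotrypsin inhibitor-like contig (c87446_g1_i3) and neutral alpha-glucosidase AB (c82309_g1_i1). Most fat body contigs that were higher are matched to fatty acid synthase, and several of them share a best-match gene. The 2 that were lower are matched to arylphorin (c72825_g1_i1), with 18 counts in T9 and 386 in T25, and to hexamerin (c78787_g1_i1), with 24 and 200. Summed, the eye list had 25 counts in T9 and 121 in T25, the muscle list 49715 and 99447, the neuronal list 42738 and 13180, the gut list 342940 and 13631, and the fat body list 401990 and 108680. The neuronal and muscle sums each rest on 1 contig. Without c63559_g1_i3, matched to a synaptic vesicle glycoprotein (30583 and 4519 counts), the neuronal list had 12155 and 8661, and without c101719_g1_i1, matched to troponin T (29437 and 75741), the muscle list had 20278 and 23706. The part of tissue proportions in the difference of the odorant receptors was not tested, and with 1 library per temperature pool and temperature cannot be told apart.

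**Figure D4:**
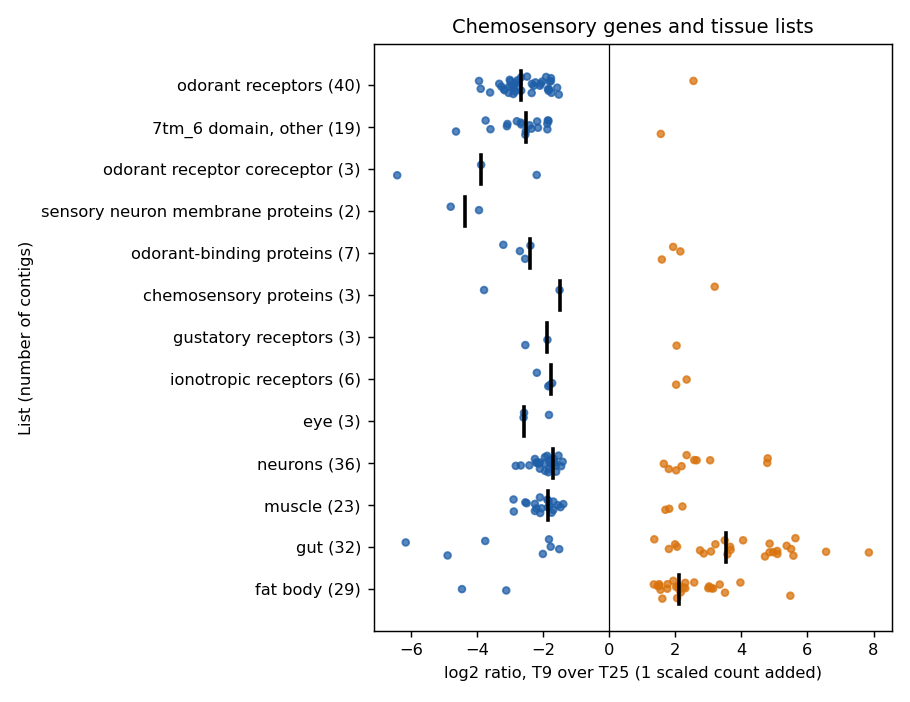
Log2 ratio of T9 over T25 (1 scaled count added) of each contig in the odorant receptors, the other contigs with the 7tm_6 domain, the further chemosensory lists and the tissue lists, with the number of contigs in parentheses. Blue points are lower and orange points higher in T9, black bars are medians, and points are spread vertically for view. The median of the 40 odorant receptors is -2.67, with 1 orange point.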

How the data were processed

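The authors deposited 1 library of whole workers for each temperature. As the study's methods and processing notes describe, reads were trimmed with Trimmomatic 0.38 and checked with FastQC 0.11.7, the pooled reads were assembled de novo with Trinity and clustered with CD-HIT, each library was aligned with Bowtie 1.1.2, and the deposited count of each contig was estimated with RSEM. No genome or sequence was used here. The authors also deposited FPKM, which divides by contig length. The deposited log2 values are log2(CPM + 1) per library and gave, by the authors' scaling, library sizes of 53237356 (T9) and 49264352 (T25). The study gives 62472718 and 63274875 clean read pairs. Columns of the authors' own comparison (fold change, mean level, raw and adjusted p) were not used.

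Ratios of T9 to T25 were computed from scaled counts with exact Clopper-Pearson 95% intervals, and log2 ratios after adding 1 scaled count, with scipy 1.17.1, pandas 2.3.3, numpy 2.4.6 and Python 3.11.15; plots used matplotlib 3.10.9. Interval code was tested on simulated data. With 1 library per temperature the intervals cover counting error only. They treat counts as independent reads, while PCR duplicates were not removed by molecular identifiers and RSEM counts are estimates. They may thus be too narrow even for counting error. A contig was called at 4-fold. Named were members with a total of at least 50 counts, those higher in T9, the largest of each name, the 5 highest and 5 lowest ratios, and of each other chemosensory list the 3 largest totals; the rest of the members are named for completeness. Names were taken from the protein match, or else the nucleotide match. The members and lists were chosen with earlier results of these data known. Alternatives covered scaling, pseudocount, minimum count, database, counting unit and unit.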

Additional observations from a re-analysis of the deposited data

How the results depend on the processing

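Scaling the libraries by clean read pairs moves the log2 ratio by 0.13 before the addition of 1. The direction of 39 of 40 contigs held, but so small a shift could not change it. The lower contig closest to 0 had a log2 ratio of -1.52. With this scaling 26 contigs were at least 4-fold lower in place of 29, and the sum was 4.29-fold lower in T9 in place of 4.70. The number at least 4-fold lower depends on how low counts are treated. With 5 scaled counts added it was 15, with a median log2 ratio of -1.84. With the whole counting interval required beyond 4-fold it was 6. Among the 12 contigs whose counts sum to 50 or more, 11 were lower in T9, 7 of them at least 4-fold. With 0.5 scaled counts added, protein names alone, counts summed per best-match gene, the largest contig left out, or FPKM values, the results computed kept their direction, and counts stayed within 1.5 times. With the 7tm_6 domain in place of the name, chosen after seeing the data, 57 of 59 contigs were lower, and the sum was 3.78-fold lower in T9 in place of 4.70, with most of its counts in a contig also matched to myosin. The sums with the nucleotide name first and the tissue sums without their largest contig were also added after seeing the data. No paired analysis was possible because each temperature has 1 library.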

Other observations

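The domain of the odorant receptors, 7tm_6, is carried by 19 further contigs that neither the protein nor the nucleotide database names as an odorant receptor (Orco left out). Of these, 18 were lower in T9, against 45.3% of all contigs of the table. They were noticed after the values had been seen. Of the 19, 13 have an odorant receptor name in the deposited KEGG or UniProt matches, so the set differs from the members in the database that names it. The contig with the most counts among them, c83337_g1_i1, has 3692 counts in T9 and 12509 in T25, but its nucleotide match is myosin regulatory light chain 2, a muscle gene. The other 18 sum to 212 counts in T9 and 832 in T25, 4.24-fold lower (3.64 to 4.95). The largest are c89618_g3_i5, with 44 and 239 counts, and c87526_g1_i1, with 22 and 94, both with a UniProt match named odorant receptor 13a. The largest fold belongs to c90572_g1_i6, named odorant receptor 43a-like in KEGG, with 1 and 46 counts, 49.7-fold lower (8.49 to 2006). Among the contigs that the authors' cut kept, most of this domain that the names miss thus lie on the same side as the named ones. As the set was noticed with the values known, this is no separate check of the named receptors.

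The contig of this set that was higher in T9 is c88166_g1_i6, with 69 counts in T9 and 21 in T25. Its nucleotide match in S. invicta is the gene LOC105199461, and that of c90076_g2_i1, the named receptor higher in T9, is LOC105199462. So the contigs with the 7tm_6 domain that were higher in T9 match genes with consecutive numbers. Other runs of close numbers lay on the lower side. Between LOC105195315 and LOC105195347, 10 contigs match 10 genes, and all 10 were lower in T9. Of these 10, 8 are members already counted above. Of all 59 contigs with this domain 57 were lower, so runs on the lower side say nothing by themselves about gene position. The genome positions of these genes were not analysed here.

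The related domain 7tm_7, of gustatory receptors, is carried by 13 contigs, 8 lower and 5 higher in T9, and 3 of the 13 are the named gustatory receptors. The largest, c78611_g1_i3, had 1131 counts in T9 and 379 in T25, and c89447_g2_i4 had 92 and 515. Both have LOC105195289 as nucleotide match, while their protein matches differ, LOC105195380 for the first and LOC105195289 for the second.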
